A study of Mus musculus with 10 samples.

Results

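Transcripts of 29 genes for lysosomal hydrolases other than cathepsins, and for the proteins that serve those hydrolases, were followed in microglia with different numbers of intact Trem2 copies. The genes were taken by name from a list drawn up with earlier results of these data known, and all 29 were found among the 24060 gene names of each library. They fall into 4 classes by what the enzyme acts on. The glycan class has 14 genes, of which 8 belong to the breakdown of glycosaminoglycans and 6 to that of glycoproteins and glycogen. The sphingolipid class has 8 genes, 6 for enzymes and 2 (Psap and Gm2a) for activator proteins. Tpp1 and Ppt1 form the protein class, and Lipa, Pla2g15, Dnase2a, Acp2 and Grn the remaining class. The label needs one qualification, because 4 of the 29 gene products do not hydrolyse a substrate themselves: Psap and Gm2a encode lipid-presenting activators, Grn encodes progranulin, the precursor of the granulin peptides, and Hgsnat encodes an acetyltransferase of heparan sulfate breakdown.

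Microglia, the resident macrophages of the brain, were taken from C57BL/6 mice of 3 to 5 months with magnetic beads against CD11b, a surface integrin of myeloid cells. The 10 RNA-seq libraries comprised 4 of wild type (WT, TREM2+/+; libraries 1 and 10 from females, 4 and 7 from males), 3 of heterozygotes (Het, TREM2+/-; libraries 5 and 11 from females, 8 from a male) and 3 of homozygous knockouts (KO, TREM2-/-; library 6 from a female, 9 and 12 from males). No treatment, transgene or Cre allele is given for any group, and nothing in the labels states which part of Trem2 the allele lacks. Nor do they state if mice were pooled for a library. The p-values thus reflect only how far libraries of a genotype spread, which may be technical.

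Lysosomal hydrolases are made in the endoplasmic reticulum, receive a mannose phosphate tag in the Golgi and are carried by receptors to the lysosome, where they take polymers and lipids apart in the acid lumen, each enzyme removing one kind of bond. Loss of a single one lets its substrate accumulate, and the resulting storage diseases include Fabry disease (GLA), Krabbe disease (GALC), fucosidosis (FUCA1), Niemann-Pick disease (SMPD1) and the neuronal ceroid lipofuscinoses (TPP1, PPT1). Microglia depend on these enzymes to digest what they engulf, including myelin, which is rich in the sphingolipids galactosylceramide, sulfatide and sphingomyelin. TREM2, a lipid-sensing receptor of myeloid cells, is known for its part in phagocytosis and in the handling of such lipids.

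Trem2 (chromosome 17, 48346401 to 48354147, plus strand, GRCm38) followed the labels. Its level, in RPKM (reads corrected for the length of the gene and the depth of the library), was 170 to 237 in WT, 85.2 to 105 in Het and 21.4 to 28.3 in KO libraries, with no overlap between genotypes, and it fell in KO against WT (log2 difference -2.93, SE 0.14, limma adjusted p = 5.45e-06). Depth was 17628972 (Het library 8) to 22525815 (WT library 1) recovered reads in libraries 1, 4, 5, 6, 7 and 8. It was 37137277 (Het library 11) to 45086993 (WT library 10) in libraries 9, 10, 11 and 12, with none between these ranges. Fits without KO library 6 thus keep only KO libraries of the deeper range, 9 and 12, which are also from males. The part of depth or of library order in the results was not tested. The 8 microglia markers were present in every library and summed to 5920 to 7064 RPKM. The 12 neutrophil markers summed to 104 to 224 RPKM in WT, 144 to 358 in Het, 372 to 382 in KO libraries 9 and 12, and 2303 in KO library 6 (Elane was at 0 in at least 1 library). The 6 monocyte markers summed to 11.0 to 22.4 RPKM in WT, 16.7 to 20.3 in Het, 24.2 to 26.5 in KO libraries 9 and 12, and 102 in KO library 6. Both lists were thus higher in every KO library than in any other, with all 10 neutrophil and all 5 monocyte markers that could be tested positive in KO against WT (0 called by limma). The 4 choroid plexus markers summed to 611 to 1044 RPKM in WT, 1049 to 1722 in Het and 966 to 1048 in KO libraries, without overlap between Het and WT. The part of these cells in the results was not tested. The KO counts of signs and the medians over all 29 genes are given with and without library 6, the one farthest out. So are the log2 differences of the genes singled out. Counts of genes without overlap are given only with that library. These are bulk samples, in which fewer cells of a type and less RNA per cell cannot be told apart.

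In WT microglia all 29 genes were expressed, at levels that spanned 148-fold from Grn to Arsa. The median member stood at 28.5 RPKM, against 6.04 RPKM over the 13621 genes tested, and 26 of the 29 were above that median. Above 100 RPKM were 8 genes, between 10 and 100 RPKM 16 genes, and under 10 RPKM 5 genes. The most abundant 4 (Grn, Man2b1, Psap and Arsb) held 49.97% of the summed RPKM of all 29, and the most abundant 8 held 76.1%. RPKM corrects for gene length and depth but not for base composition or overlapping genes, so comparisons of level between genes are approximate. On the opposite strand, Arsb shares 1948 exon bases with Gm26527 and 463 with Gm47210, and Arsa shares 690 with C230037L18Rik. Nothing in the labels says that counting used strand, so reads of such pairs cannot be told apart. Every member had between 104 and 56666 reads in each library, so none was limited to a few reads.

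**Figure D1:**
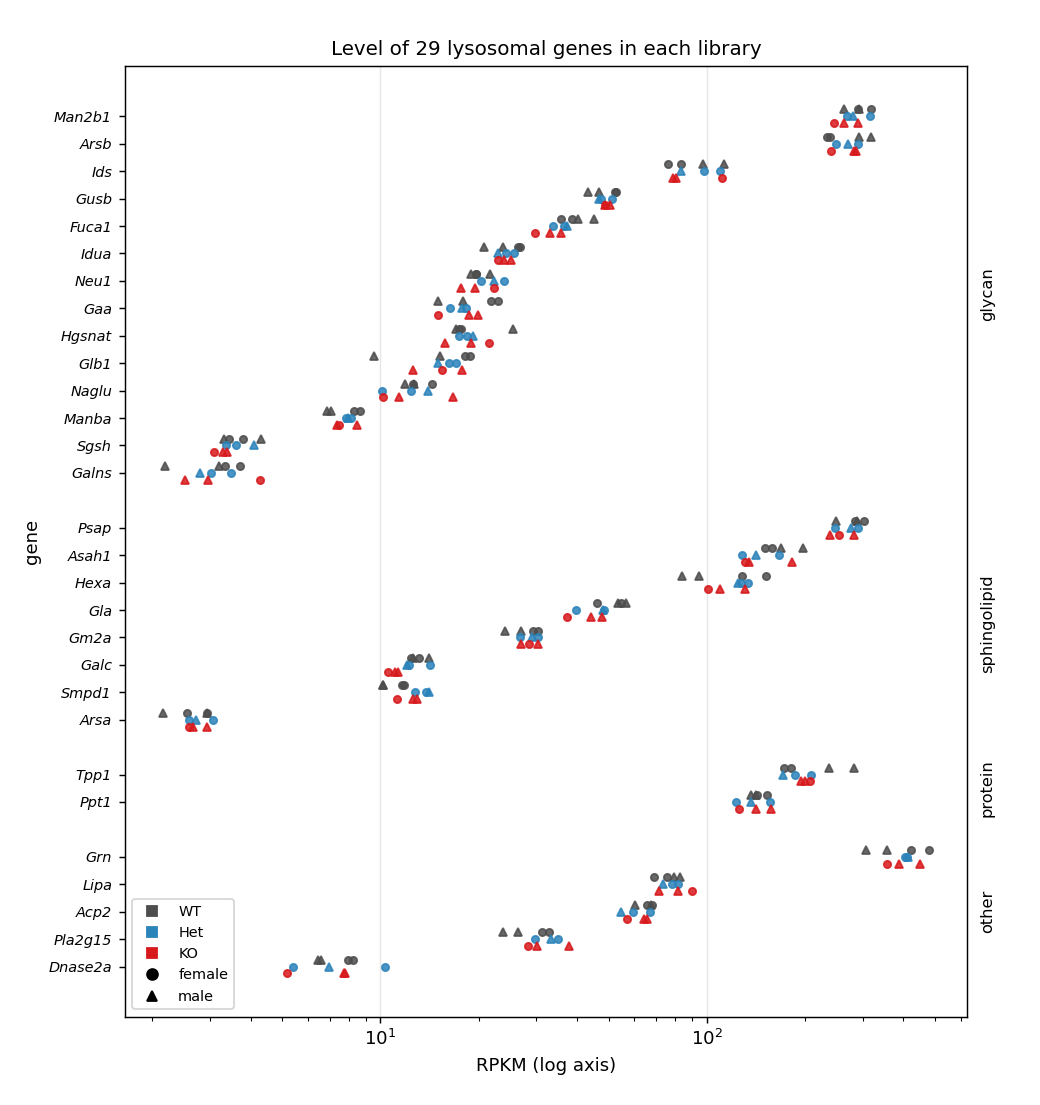
RPKM of each of the 29 genes (rows, grouped by class and ordered by WT mean) in the 10 libraries, on a log axis; each point is 1 library, coloured by genotype, with circles for females and triangles for males. Grn stands highest at 306 to 479 RPKM in WT and Arsa lowest at 2.16 to 2.95 RPKM, and KO and WT libraries overlap for all genes except Fuca1 and Galc.

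Within the glycan class, the level differed widely between enzymes of a shared route. In glycosaminoglycan breakdown, Arsb, a sulfatase of dermatan and chondroitin sulfate, stood at 271 ± 41.2 RPKM in WT (SD, n = 4) and Ids, the iduronate sulfatase, at 92.5 ± 16.3 RPKM (SD, n = 4). Gusb, the beta-glucuronidase, followed at 48.8 ± 4.64 RPKM and Idua, the alpha-iduronidase, at 24.4 ± 2.80 RPKM. Of the enzymes that act on the glucosamine of heparan sulfate, Hgsnat was at 19.4 ± 4.07 RPKM, overlapping Idua, Naglu, the alpha-N-acetylglucosaminidase, at 12.9 ± 1.08 RPKM and Sgsh, the sulfamidase, at 3.71 ± 0.442 RPKM. Galns, a sulfatase of keratan sulfate, was at 3.11 ± 0.660 RPKM and overlapped Sgsh. Among the enzymes of glycoproteins and glycogen, Man2b1, the acid alpha-mannosidase, stood at 291 ± 22.5 RPKM, whereas Manba, the beta-mannosidase, was at 7.73 ± 0.892 RPKM. Fuca1, the alpha-fucosidase, lay between them at 39.9 ± 3.86 RPKM. Neu1, the sialidase, was at 19.9 ± 1.20 RPKM, Gaa, the acid alpha-glucosidase of glycogen, at 19.4 ± 3.63 RPKM and Glb1, the beta-galactosidase, at 15.4 ± 4.23 RPKM. Gaa overlapped both others, while the lowest Neu1 library (18.9 RPKM) was just above the highest of Glb1 (18.8 RPKM).

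The sphingolipid class was led by Psap, the precursor of the saposins, at 282 ± 23.0 RPKM in WT (SD, n = 4), followed by Asah1, the acid ceramidase, at 169 ± 20.5 RPKM and Hexa, the alpha subunit of beta-hexosaminidase, at 115 ± 31.1 RPKM. Gla, the alpha-galactosidase of globosides, stood at 52.6 ± 4.57 RPKM, and Gm2a, which presents gangliosides to hexosaminidase, at 27.7 ± 2.81 RPKM. The enzymes of these myelin lipids were the lowest of the class: Galc, the galactosylceramidase, at 13.04 ± 0.794 RPKM, Smpd1, the acid sphingomyelinase, at 11.0 ± 0.892 RPKM, and Arsa, the sulfatidase, at 2.65 ± 0.375 RPKM. Of the protein class, Tpp1, a tripeptidyl peptidase, was at 218 ± 51.3 RPKM and Ppt1, which removes palmitate from proteins, at 143 ± 6.73 RPKM. In the remaining class, Grn led at 391 ± 75.7 RPKM, then Lipa, the acid lipase of cholesteryl esters and triglycerides, at 76.6 ± 6.03 RPKM, Acp2, an acid phosphatase, at 65.3 ± 3.51 RPKM, Pla2g15, a phospholipase, at 28.5 ± 4.27 RPKM, and Dnase2a, the acid DNase, at 7.31 ± 0.940 RPKM. Variation between WT libraries was 11.5% for the median member (coefficient of variation), against 16.95% for the median gene tested, and ranged from 4.69% (Ppt1) to 27.4% (Glb1). This comparison was not matched for level, and the median level was 28.5 RPKM for members against 6.04 RPKM for all genes tested.

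Knockout against wild type asks what loss of both Trem2 copies does to these transcripts. None of the 29 genes passed the test (limma, adjusted p under 0.05 over 13621 genes; 0 of 29 called, where 0.00734% of all genes tested, that is Trem2 alone, were called), and limma-voom on recovered reads also called 0 of 29. The summed level of all 29 was 2472 ± 37.5 RPKM in WT (SD, n = 4) and 2372 ± 114 RPKM in KO (SD, n = 3), or 96.0% of WT. Without KO library 6, whose sum of 2244 RPKM was the lowest of the 10, the remaining KO sums were 2464 RPKM, inside the WT range of 2434 to 2524 RPKM, and 2408 RPKM, just below it. The log2 difference was negative for 17 genes and positive for 12, with a median of -0.03, against 0.03 over all genes tested. That median was 0.05, with 14 genes negative, without KO library 6, so its sign rested on that library. Without WT library 4 the median was -0.07. The 95% intervals of all 29 genes lay within 1 log2 unit of 0, and those of 25 genes within 0.5, the widest reach being -0.58 for Dnase2a and 0.49 for Galns.

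**Figure D2:**
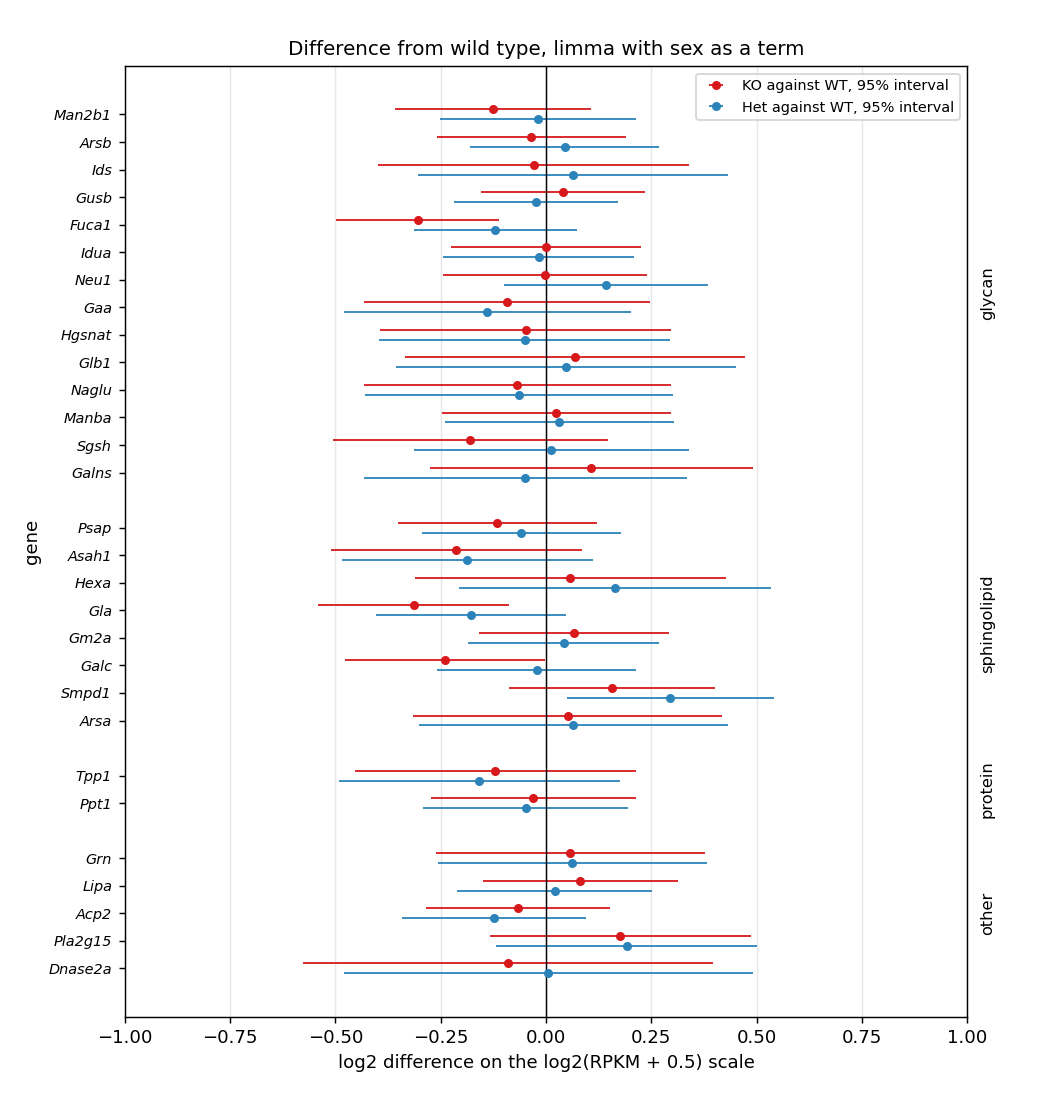
Log2 difference of KO (red) and Het (blue) from WT for each of the 29 genes (rows, by class), on the log2(RPKM + 0.5) scale, with 95% intervals from limma. Most intervals span 0, and those that do not are Fuca1, Gla and Galc for KO (below 0) and Smpd1 for Het (above 0); after adjustment over 13621 genes none of the 29 passed.

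At an unadjusted p under 0.05, 3 members stood out in KO against WT, and all 3 were lower (1.81% of all genes tested were lower at that threshold, and 5.13% in either direction). They were Fuca1 of the glycan class and Gla and Galc of the sphingolipid class. Fuca1 and Galc were also the 2 members whose KO libraries all lay below all WT libraries (1.6% of all genes tested did so, and 4.59% in either direction), and 0 members lay wholly above (2.99% of all genes). By limma-voom, 2 members (Fuca1 and Gla) were under the unadjusted threshold, and without KO library 6 there were 2, Fuca1 and Pla2g15.

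Fuca1 (chromosome 4, 135920735 to 135940311, plus strand) was at 38.6, 45.0, 40.2 and 35.8 RPKM in WT libraries 1, 4, 7 and 10, at 33.9, 37.3 and 36.4 RPKM in Het libraries 5, 8 and 11, and at 29.7, 35.6 and 33.1 RPKM in KO libraries 6, 9 and 12. The highest KO library (9) came just under the lowest WT library (10), and the Het libraries spanned the gap between them. The KO mean was 82.3% of WT, with a log2 difference of -0.30 (SE 0.09, 95% interval -0.50 to -0.11; limma unadjusted p = 0.00535, adjusted p = 0.927). Leaving out each library in turn kept the unadjusted p under 0.05 in 10 of 10 fits, and without KO library 6 the log2 difference was -0.28. Fuca1 also differed by sex at that threshold, as described with the sexes, and 2 of the 4 WT and 2 of the 3 KO libraries were from males.

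Gla (chromosome X, 134588149 to 134601125, minus strand) was at 54.6, 53.3, 56.4 and 46.0 RPKM in the WT libraries, at 39.8, 48.2 and 48.5 RPKM in the Het libraries and at 37.4, 47.7 and 44.2 RPKM in the KO libraries, each in the same order of library numbers. WT library 10 overlapped both other genotypes, and the lowest values were those of KO library 6 and Het library 5, both from females. The KO mean was 82.1% of WT (log2 difference -0.31, SE 0.10, 95% interval -0.54 to -0.09; limma unadjusted p = 0.0108, adjusted p = 0.937). Without KO library 6 the log2 difference was -0.25 and the unadjusted limma p 0.0721.

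Galc (chromosome 12, 98202294 to 98259459, minus strand) was at 12.4, 14.1, 12.5 and 13.1 RPKM in WT, at 14.1, 12.1 and 12.3 RPKM in Het and at 10.6, 11.1 and 11.3 RPKM in KO libraries. The KO libraries were close together and below all the others, while the Het libraries lay on both sides of the WT range, library 5 just above it and libraries 8 and 11 just below. The KO mean was 84.1% of WT (log2 difference -0.24, SE 0.11, 95% interval -0.48 to -0.00; limma unadjusted p = 0.0475, adjusted p = 0.969). Of the 10 fits that left out a library, 2 kept Galc under the unadjusted threshold. Without KO library 6 the log2 difference was -0.21 and the unadjusted limma p 0.161. An antisense gene, Gm47439, overlaps 400 bases of Galc exons, and nothing in the labels says that counting used strand, so reads of the pair cannot be told apart. Fuca1, Gla and Smpd1 share no exon with another gene of the annotation.

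**Figure D3:**
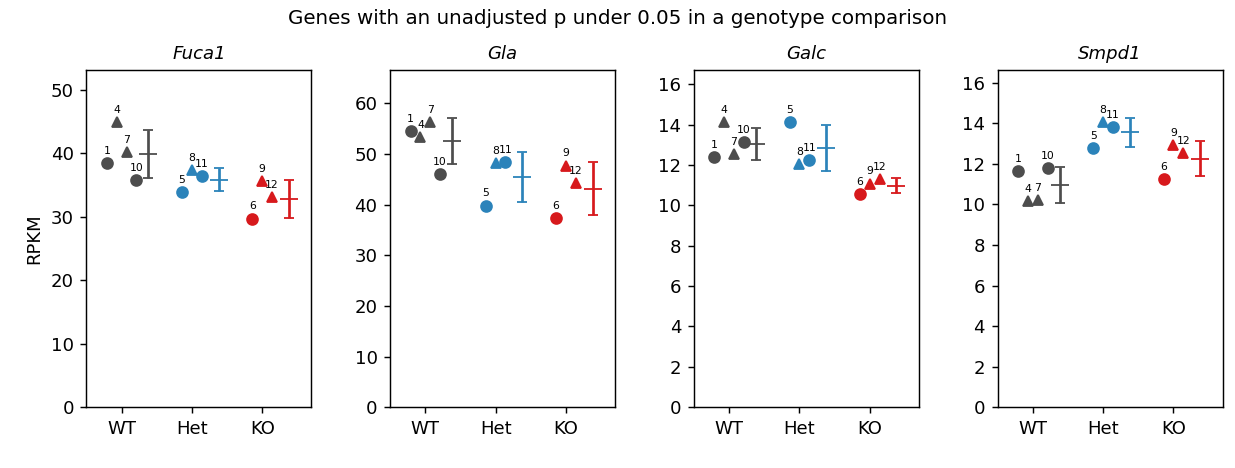
RPKM of Fuca1, Gla, Galc and Smpd1 in each library (points, numbered by library, circles female and triangles male; axes start at 0), with the mean and SD of each genotype beside them. The KO libraries of Fuca1 (29.7 to 35.6) and Galc (10.6 to 11.3) sit below all WT libraries, those of Gla overlap WT, and the Het libraries of Smpd1 (12.8 to 14.1) sit above all WT libraries.

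By class, the KO differences were small in every group. The glycan class had 9 negative and 5 positive differences with a median log2 difference of -0.03, and -0.01 without KO library 6, and its summed level was 831 ± 29.2 RPKM in KO (SD, n = 3) against 869 ± 32.4 RPKM in WT (SD, n = 4). Beside Fuca1, the largest were Sgsh at -0.18 (95% interval -0.51 to 0.15) and Man2b1 at -0.13 (-0.36 to 0.11), while Gusb, Idua and Neu1 stood at 0.04, 0.00 and -0.00. The sphingolipid class was split, with 4 negative and 4 positive and a median of -0.03, and its sum was 620 ± 53.8 RPKM in KO against 672 ± 30.1 RPKM in WT, or 92.2%. Single KO sums of that class were 576, 680 and 603 RPKM in libraries 6, 9 and 12, so library 9 lay within the WT range of 635 to 699 RPKM. Asah1 was at -0.21 (-0.51 to 0.08), Psap at -0.12 (-0.35 to 0.12) and Smpd1 at 0.16 (-0.09 to 0.40). Hexa and Arsa stood at 0.06 and 0.05, and Gm2a at 0.07. The sphingolipid median was 0.02 without KO library 6 and -0.11 without WT library 4. With that KO library left out, Man2b1 stood at -0.02, Asah1 at -0.16, Smpd1 at 0.25 and Hexa at 0.31.

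Both genes of the protein class were negative, Tpp1 at -0.12 (95% interval -0.45 to 0.21) and Ppt1 at -0.03 (-0.27 to 0.21); without KO library 6 they stood at -0.24 and 0.09. The remaining class had 3 positive and 2 negative differences and a median of 0.06. Grn was at 424, 306, 356 and 479 RPKM in WT libraries 1, 4, 7 and 10 and at 357, 387 and 451 RPKM in KO libraries 6, 9 and 12, with every KO library inside the WT range (log2 difference 0.06, 95% interval -0.26 to 0.38, limma adjusted p = 0.999). Without KO library 6 the class median was 0.20, and without WT library 4 it was -0.06. Lipa stood at 0.08, Pla2g15 at 0.18, Acp2 at -0.07 and Dnase2a at -0.09. Single libraries decided these sizes: without KO library 6, Lipa stood at -0.03, Pla2g15 at 0.35, Acp2 at 0.05 and Dnase2a at 0.20, and without KO library 12 Pla2g15 was at 0.04. Dnase2a shares 1616 bases of exon with Mast1 on the other strand, and Sgsh shares 955 bases with Card14 in the same way; in all, 8 members share exon bases with a protein-coding gene, Glb1 with Tmppe on its own strand and the other 7 on the opposite strand only. None of these values passed the test, and each is a size with its error.

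The promoters were searched for the site of TFEB, a transcription factor that drives many lysosomal genes through the CLEAR element. Its core, TCACGTGA, and the shorter E-box inside it, CACGTG, read the same on both strands, and every match of the longer one is also a match of the shorter. In RefSeq promoters of GRCm38.p6, 250 bases before to 50 bases after each start, 26 members had an entry and Galns, Hgsnat and Asah1 had none. TCACGTGA was in 1 of the 26 (Gla, 3.85%), against 304 of 27025 genes in the table (1.12%). CACGTG was in 6 of the 26 (23.1%), against 2187 of the 27025 genes (8.09%). The 27025 genes were not limited to the 13621 genes tested, which hold all members, so these shares are not matched for expression. Gla is shown whole because it holds the longer core at 2 places and is among the 3 members at an unadjusted p under 0.05; the other 5 are shown as 30 bases around the E-box, to show where the flanking bases depart from the longer core. Each runs from its 5′ to its 3′ end on the strand of the gene, with the motif in capitals (TCACGTGA for Gla, CACGTG for the others). The Gla promoter is chrX:134600956-134601255 on the minus strand, and its E-boxes lie 227 and 194 bases before the RefSeq start. The windows are chr11:119355522-119355551 (minus strand) for Sgsh, chr11:101070009-101070038 (plus) for Naglu, chr9:114401018-114401047 (plus) for Glb1, chr11:119267811-119267840 (plus) for Gaa and chr15:89477423-89477452 (minus) for Arsa.
Gla promoter: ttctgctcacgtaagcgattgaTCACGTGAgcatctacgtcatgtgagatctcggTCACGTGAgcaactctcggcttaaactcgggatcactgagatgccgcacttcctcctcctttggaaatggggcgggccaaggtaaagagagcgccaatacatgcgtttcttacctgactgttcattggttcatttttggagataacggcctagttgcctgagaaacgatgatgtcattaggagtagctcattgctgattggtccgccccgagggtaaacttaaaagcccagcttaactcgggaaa
Sgsh window: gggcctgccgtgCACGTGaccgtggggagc
Naglu window: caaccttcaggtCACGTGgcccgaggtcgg
Glb1 window: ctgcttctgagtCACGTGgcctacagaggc
Gaa window: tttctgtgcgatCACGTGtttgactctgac
Arsa window: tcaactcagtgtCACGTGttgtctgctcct

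In the KO libraries, the 6 genes with an E-box had log2 differences from WT of -0.31 (Gla), -0.18 (Sgsh), -0.09 (Gaa), -0.07 (Naglu), 0.05 (Arsa) and 0.07 (Glb1), so they lay on both sides of 0. In the fit without KO library 6 they were at -0.25, -0.19, 0.13, 0.08, 0.12 and 0.21. Fuca1 and Galc, the other 2 at an unadjusted p under 0.05, have neither motif in the window. A match is a run of letters and says nothing of whether the factor binds there, and no match says only that these letters are absent from the window.

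Heterozygous against wild type asks whether loss of 1 copy is enough to alter these transcripts. Again 0 of 29 passed (limma, adjusted p under 0.05, where 0.0% of the 13621 genes tested were called), and 0 of 29 were called by limma-voom. Trem2 itself was not called by limma here (log2 difference -1.02, SE 0.14, adjusted p = 0.238). The lack of a call in this comparison therefore does not show the lack of a change. The summed level of all 29 was 2428 ± 94.6 RPKM in Het (SD, n = 3), or 98.2% of WT. The differences were 14 positive and 15 negative, with a median of -0.02, against 0.00 over all genes tested. All 29 intervals lay within 1 log2 unit of 0 and 26 within 0.5. Class medians were -0.02 for glycans, 0.01 for sphingolipids, -0.10 for proteins and 0.02 for the remaining genes.

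Smpd1 (chromosome 7, 105554360 to 105558389, plus strand), whose enzyme splits sphingomyelin to ceramide, was the 1 member at an unadjusted p under 0.05 (2.75% of all genes tested, 1.4% in the higher direction) and the 1 member whose Het and WT libraries did not overlap (4.53% of all genes, 2.23% in the higher direction). It was at 11.6, 10.2, 10.2 and 11.8 RPKM in WT libraries 1, 4, 7 and 10, at 12.8, 14.1 and 13.8 RPKM in Het libraries 5, 8 and 11, and at 11.3, 12.9 and 12.5 RPKM in KO libraries 6, 9 and 12. All Het libraries were above all WT libraries, and the KO libraries overlapped both, with library 6 inside the WT range. Choroid plexus markers were likewise higher in every Het than in every WT library. The Het mean was 124% of WT (log2 difference 0.30, SE 0.11, 95% interval 0.05 to 0.54; limma unadjusted p = 0.0227, adjusted p = 1.00). The unadjusted limma p was 0.117 without Het library 8, 0.0565 without Het library 11 and 0.0529 without WT library 7. In the fit without Het library 11, the members under the unadjusted threshold were Asah1 and Gla instead. Both were lower in Het, with log2 differences of -0.32 and -0.26.

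The 3 genes singled out in KO had these values in Het. Fuca1 had a log2 difference of -0.12 (95% interval -0.31 to 0.07), Gla one of -0.18 (-0.40 to 0.05) and Galc one of -0.02 (-0.26 to 0.21), all from the same WT libraries as the KO differences. Asah1 stood at -0.19 (-0.48 to 0.11) and Pla2g15 at 0.19 (-0.12 to 0.50). Hexa was at 127, 124 and 134 RPKM in the Het libraries, within the WT range of 83.9 to 152 RPKM.

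Knockout against heterozygous tests the difference between those groups directly. It called 0 of 29 members by limma (0.00734% of all genes tested were called, Trem2 alone), 0 by limma-voom, and 0 members were at an unadjusted p under 0.05 by either (3.35% of all genes by limma). Galc was the 1 member without overlap, lower in KO (3.02% of all genes were lower without overlap and 7.42% in either direction), with a log2 difference of -0.22 (95% interval -0.48 to 0.04). Fuca1 was at -0.18 (-0.40 to 0.03), Gla at -0.14 (-0.38 to 0.11) and Smpd1 at -0.14 (-0.41 to 0.13), so for none of the 4 was KO shown to differ from Het. Without KO library 6, Galc stood at -0.18, Fuca1 at -0.16, Gla at -0.07 and Smpd1 at -0.03. Negative differences numbered 18 of 29 and positive ones 11, with a median of -0.01, against 0.03 over all genes. With TMM or median-ratio scaling 23 were negative, as the share over all genes went from 42.9% to 50.9%. Leaving out KO library 6, 12 were negative (median 0.03), and without Het library 11 13, so the balance of signs rested on single libraries.

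In the sphingolipid class 7 of 8 differences between KO and Het were negative, among them all 6 enzymes, with a median of -0.08 for the class and -0.12 for the enzymes. The smallest of the 6 was Arsa at -0.01 and the largest Galc. Without KO library 6, 4 of the 8 were negative and the class median was 0.01, so the direction of the class rested on that library. It was the KO library from a female, had 2303 RPKM of neutrophil markers and had the fewest recovered reads of the KO group (19307555). The part of each of these was not tested. 

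Sex was a term of each fit, and male against female is a further labelled difference, with 5 libraries of each sex. It called 0 of 29 members (limma; 0.044% of all genes tested were called, 6 genes) and 0 by limma-voom, and in 0 members were the sexes free of overlap (0.903% of all genes). At an unadjusted p under 0.05 were 3 members (5.34% of all genes tested; 2 by limma-voom), all of the glycan class. Galns was lower in males (log2 difference -0.37, SE 0.15, limma adjusted p = 0.919), while Arsb (0.23, SE 0.09) and Fuca1 (0.17, SE 0.07) were higher, with the same adjusted p. Of the 10 fits that left out a library, 6 kept Galns, 6 kept Arsb and 1 kept Fuca1 under the unadjusted threshold. The X-linked members were not under it in the main fit, with Gla at 0.18 (95% interval -0.02 to 0.37) and Ids at -0.06 (-0.37 to 0.25). Gla was under it with TMM or median-ratio scaling, and without WT library 1 or Het library 11. Without KO library 6, a female, the members under that threshold were Glb1 and Hexa instead. Negative differences numbered 19 of 29, and 15 with TMM or median-ratio scaling.

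Single libraries stood apart for many of these genes. WT library 4 was the farthest of the 10 from the gene's own mean for 15 of the 29 members (51.7%, against 25.6% of all genes tested). In that library Tpp1 was 0.48, Hgsnat 0.44 and Asah1 0.35 above the mean on the log2(RPKM + 0.5) scale, and Glb1 was at -0.65, Hexa at -0.48 and Grn at -0.37. Over the 29 genes the SD of these deviations was 0.27 in WT library 4, 0.19 in KO library 6 and 0.11 to 0.17 in the others. Over all genes tested it was larger in every library, at 0.41, 0.36 and 0.24 to 0.33, with the same 2 libraries highest. In KO library 6, Dnase2a was at -0.43, Gla at -0.33 and Naglu at -0.29, while Galns was 0.41 and Ids 0.27 above the mean. Single genes deviated elsewhere, such as Dnase2a at 0.50 in Het library 11 and Naglu at 0.40 in KO library 12.

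**Figure D4:**
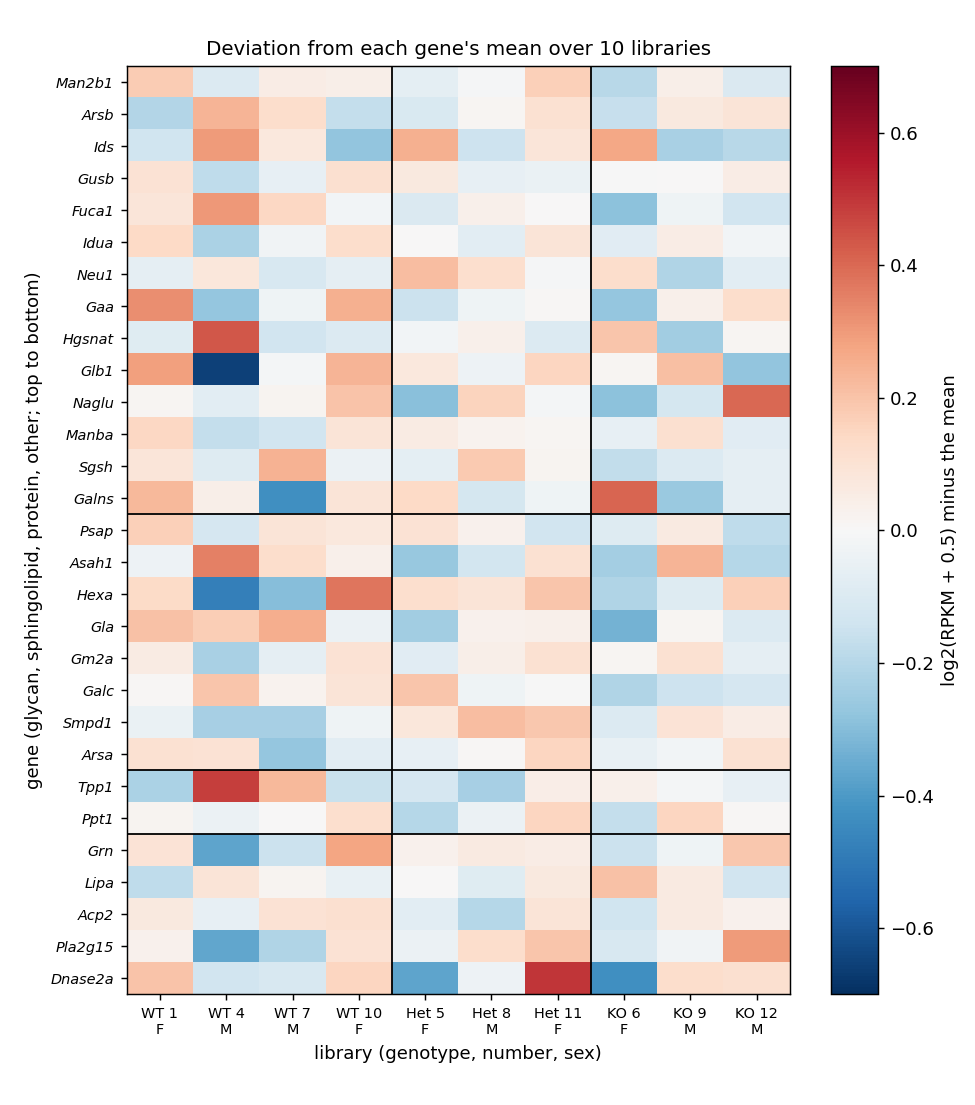
Deviation of each of the 29 genes (rows, by class) from its own mean over the 10 libraries (columns, by genotype and sex), in log2(RPKM + 0.5) units, from blue (below the mean) to red (above it). WT library 4 shows the strongest colours in both directions, from -0.65 for Glb1 to 0.48 for Tpp1, and KO library 6 is next.

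Deviations from the mean were also set against base composition. Across the 29 genes, the correlation of a library's deviations with the GC content of the longest transcript was -0.46 in WT library 4 and -0.37 in WT library 7, but 0.45 in WT library 1, 0.38 in WT library 10, 0.51 in Het library 8 and 0.57 in KO library 12. Over 13511 genes the same values were -0.23, -0.04, 0.16, 0.09, 0.15 and 0.26. These are descriptions across genes, which share a library and are not independent. GC content ran from 38.3% in Galc to 59.8% in Naglu. In KO library 6 the value was -0.21 over the members and -0.22 over all genes. The part of base composition in the differences between genotypes was not tested.

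The 29 genes lie on 15 chromosomes, with 6 on chromosome 8, 5 on chromosome 11 and 2 (Ids and Gla) on X. Neu1 is the 1 member on the chromosome of Trem2, 13.41 Mb from it, and stood at 99.5% of WT in KO. Close neighbours did not share a direction throughout: Smpd1 and Tpp1, 186 kb apart, had KO differences of 0.16 and -0.12, whereas Sgsh and Gaa, 58.0 kb apart, had -0.18 and -0.09, and Man2b1 and Dnase2a, 160 kb apart, had -0.13 and -0.09. When KO library 6 was left out, Gaa stood at 0.13 and Dnase2a at 0.20, opposite in sign to their neighbours. None of these 6 differences passed the test.

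Of 26 other lysosomal enzymes, 24 were tested (Acp5 and Rnaset2a were below the expression filter). In KO against WT 12 were positive and 12 negative, with a median log2 difference of -0.00. By limma 0 were called and 2 of the 24 fell under an unadjusted 0.05, where 5.13% of all genes tested did so. The 3 with the smallest p were Hyal1, Scpep1 and Aga. Hyal1, a hyaluronidase, was at 2.0, 1.37, 1.82 and 1.57 RPKM in WT, at 2.09, 2.11 and 2.14 RPKM in Het and at 3.00, 2.80 and 3.04 RPKM in KO libraries. Its 3 genotypes did not overlap. Of all genes tested, 2.99% were wholly higher in KO than in WT and 2.23% in Het than in WT. The share with all 3 genotypes apart was not computed. Hyal1 in KO was 174% of WT (log2 difference 0.67, SE 0.17, limma unadjusted p = 0.00219, adjusted p = 0.913). The log2 difference was 0.69 without KO library 6. That difference is in the opposite direction to those of Fuca1, Gla and Galc, and at 61 to 266 reads per library it rests on fewer reads than any of the 3. Scpep1, a serine carboxypeptidase, stood at -0.28 and Aga, the aspartylglucosaminidase of glycoproteins, at 0.30 (limma adjusted p = 0.964 and 0.971). They stood, without KO library 6, at -0.19, above the unadjusted threshold, and at 0.27.

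Of 15 genes that deliver or control the hydrolases, 14 were found and tested, with 6 positive and 8 negative in KO against WT, 0 called by limma and a median of -0.04. Without KO library 6, 8 were positive and 6 negative, with a median of 0.04. Gnptg, the gamma subunit of the enzyme that makes the mannose phosphate tag, was at 11.9 to 21.1 RPKM in WT and 21.5 to 23.5 RPKM in KO libraries (log2 difference 0.46, limma adjusted p = 0.942), and its log2 difference was 0.66 without KO library 6 and 0.30 without WT library 4; it was under an unadjusted 0.05 in 7 of the 10 fits that left out a library. Tfeb was at 5.23 to 6.08 RPKM in WT, 6.78 to 7.44 in Het and 6.13 to 8.63 in KO libraries (log2 difference 0.29, limma adjusted p = 0.977), with WT below both other genotypes. Its log2 difference was 0.33 without KO library 6. The shares of all genes tested that lay wholly above WT were 2.99% for KO and 2.23% for Het. Sumf1, which activates the sulfatases, had a log2 difference of -0.19 (limma adjusted p = 0.977), and one of -0.12 without KO library 6. As with the 29 members, each of these sizes is given with an adjusted p far above the threshold.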

How the data were processed

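Total RNA of CD11b-isolated microglia was made into libraries with the Ovation RNA-seq system v2 and sequenced on an Illumina HiSeq4000, per the labels' protocols. The deposited values are RPKM computed by the authors, 1 per gene and library. The submitters' processing notes list STAR, HTSeq, edgeR, limma and the build mm10; the order of these tools, what versions were run and which annotation was used were not given in the sources used here. Deposited values were whole multiples of 1 read for 18299 of 18299 genes above 0 in at least 3 libraries (100%, within 0.0005 reads beside a relative 1e-09), which gave the read numbers.

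Of 24060 names, 27 turned into dates were left out. A gene entered the test at 0.5 RPKM or more in 3 or more libraries (13621 genes, with all 29 members). One model over the 10 libraries, with genotype and sex, was fitted to log2(RPKM + 0.5) with limma 3.58.1 in R 4.3.3 (limma-trend, two-sided, Benjamini-Hochberg adjusted). The code was also run on simulated data, in which the planted changes were larger than any difference of the members. That run does not show how well changes of the members' size would be found. A gene was called at an adjusted p under 0.05. Differences on this scale understate those of low genes. The members and lists were chosen with earlier results of these data known. Genes named were Trem2, all members, and from each other list the called genes or, with fewer than 3 called, the 3 with the smallest p in KO against WT. Coordinates and exons are from GENCODE M21 (GRCm38), which may not be the authors' annotation. Alternatives were other pseudocounts, filters and scalings, no sex term, limma-voom and leaving out each library.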

Additional observations from a re-analysis of the deposited data

Results flagged for a closer look

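Of 30 genotype groups of 4 libraries examined (the 29 members and Trem2 in WT), 1 had a library far from the others. Hgsnat in WT library 4 was at 25.5 RPKM, against 16.99 to 17.6 RPKM in WT libraries 1, 7 and 10, and the gap to the nearest of them was 0.928 of the group's range. Chance alone marks about 1 group in 20 in this way. The same library was the farthest from the mean for 15 of the 29 members. The KO groups, with 3 libraries, and the Het groups, with 3, were not examined in this way.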

How the results depend on the processing

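In each comparison 0 of 29 members were called under every alternative run (18 for the genotypes, 17 for sex; lowest adjusted p of a member by limma 0.566), and of 36 summary results 9 moved. limma-voom on recovered reads was chosen after seeing the data, in place of the planned edgeR test, which was not run because the files hold RPKM; it called 2 genes in KO against WT and 1 (Trem2) in Het against WT, against 1 and 0. Leaving out a library gave 1 to 3 genes called in KO against WT (3 without KO library 6). Medians over such fits ranged, in KO against WT, from -0.11 to 0.018 for sphingolipids, -0.063 to 0.20 for the remaining class and -0.068 to 0.035 for other lysosomal enzymes. In KO against Het they ranged from -0.13 to 0.0078, -0.11 to 0.19 and -0.028 to 0.065 for the same lists, and in male against female from -0.19 to 0.0064 for the remaining class. Medians not counted as moved could also change sign when 1 library was left out. Over all 29 members the range was -0.066 to 0.053 in KO against WT and -0.048 to 0.031 in Het against WT. In KO against Het it was -0.055 to 0.035. Among members of KO against WT, 11 of 29 changed sign without WT library 4, 7 without KO library 6, 7 without KO library 9, 5 without KO library 12, 0 to 3 without any other library and 2 with TMM scaling, none of them Fuca1, Gla or Galc. The causes were not tested. No paired analysis was possible because the labels give the genotypes no shared replicate number; a block on runs of consecutive library numbers was not run. The number of libraries, 3 or 4 a group, sets the width of the intervals given, which are not adjusted for the number of genes.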
